A study of Glycine max with 16 samples.

Results

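SPX3 and PHR18 are genes of the plant phosphate status pathway, and their transcripts were followed in maturing soybean seeds from plants kept well watered or exposed to combined heat and water stress. They were chosen by name, as the 2 phosphate status genes whose probe sets had been lower in stressed seeds at the stages R6 and R8 in an earlier look at these arrays. They are 2 of the 6031 genes that the array annotation pairs with a probe set. Each is read by 1 probe set, Gma.1008.1.A1_at for SPX3 and Gma.15941.1.S1_at for PHR18. Since the R6 and R8 stress differences selected them, those differences are given below as a description without a test. The tests are kept for R7 and for the changes between stages. The stage changes average both environments, but they include the R6 and R8 arrays used in the choice. Their p-values are therefore not free of that choice.

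Phosphate status in plant cells is read by proteins with an SPX domain, which bind inositol pyrophosphates, small signalling molecules that accumulate when phosphate is plentiful. In this state SPX proteins hold back the PHR proteins, MYB-type transcription factors that otherwise bind promoters of phosphate starvation genes and raise their transcription. In Arabidopsis and rice, transcripts of several SPX genes themselves climb when phosphate is short, so that they are used as reporters of phosphate status. Seeds store most of their phosphate as phytate, an inositol phosphate that is deposited during filling and is drawn on at germination.

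Whole seeds (seed coat and embryo) of the cultivar MG/BR 46 (Conquista), which the study treats as susceptible to chlorophyll retention, were harvested at R6 (full-size green seed), R7 (beginning of maturation) and R8 (full maturity). All plants grew in a polytunnel at an average of 24.7 °C with free water until R5.5. Non-stressed plants then stayed there, and stressed plants moved to a greenhouse where days averaged 39.5 °C and were given water only on wilting, so that heat and water shortage were applied together and cannot be told apart. RNA of many seeds per sample (the labels and the methods give different minimum numbers) was hybridised to Affymetrix Soybean Genome arrays, with 3 arrays per condition except non-stressed R7 and non-stressed R8, which had 2 each, 16 in all. The labels call the samples biological replicates, and by the paper's methods pots of a condition were joined in pairs to form 3 replicates. The p-values therefore measure the spread between such pools of pots within the greenhouse and within the polytunnel. They do not cover a repeat of the stress, and the place of growth cannot be told apart from it.

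Levels are log2 signals normalised by RMA, so a difference of 1 is a 2-fold change, and levels of different probe sets are not compared with each other. Tests covered probe sets whose mean was over 3 in at least 1 of the 6 conditions, which left 19194 of 37593 soybean probe sets. A probe set was called when the Benjamini-Hochberg adjusted p-value of limma's moderated test was at most 0.05 and the difference was at least 2-fold. A level of 1.02, the highest over arrays of the 95th percentile of the 23394 probe sets of other organisms, served as background. SPX3 passed the signal limit only in non-stressed R6 and non-stressed R8 seeds, and PHR18 in both R6 conditions and in non-stressed R8 seeds.

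The arrays within a condition correlated at a mean of 0.958 to 0.996 over soybean probe sets, and the lowest of these values belonged to stressed R6 replicate 3. The summed signal of 6 embryo reserve genes (glycinin, conglycinin and others), on the log2 scale, was 14.74 to 14.86 over all R6 arrays, 14.05 to 14.15 in non-stressed and 12.12 to 12.76 in stressed R7 seeds, and 11.24 to 12.34 in non-stressed and 13.81 to 13.88 in stressed R8 seeds. All 6 were above background in each condition. The summed signal of 4 seed coat genes was 9.24 to 9.84 in non-stressed and 5.83 to 6.66 in stressed R6 seeds, and 2.68 to 3.97 at R7 and R8, where SCB1 and LAR1, which mark the seed coat, were at background. Of the 4 seed coat genes, 4 were above background in non-stressed R6 seeds, 3 in stressed R6, 2 in non-stressed R7 and 1 in each other condition. At R6 the seed coat genes HPS and SCB1 fell under stress by 3.64 and 3.87 and LAR1 fell to background, whereas Ep, a seed coat peroxidase, rose by 2.17, from a mean of 2.14 to 4.31 (limma adjusted p of 0.000118 or less for each). The seed coat sum, carried by HPS with a mean of 9.36 in non-stressed R6 seeds, was lower in stressed seeds at R6, without overlap. The embryo sum was higher in stressed seeds at R8, without overlap. At R7 both sums were lower in stressed seeds, again without overlap. These differences stand beside the SPX3 and PHR18 signals described next, and their part in those results was not tested. The gap between the 3′ and 5′ actin control probe sets, which widens in degraded RNA, averaged 1.75 to 2.60 log2 units in 5 conditions. In non-stressed R7 seeds it averaged 3.72, against 2.45 in stressed R7 seeds. Its part in the R7 stress differences and in the stage differences that include R7 was not tested. The gap between the 3′ and middle GAPDH control probe sets moved with stage, from means of 0.48 and 0.77 at R6 to 1.66 and 1.18 at R7 and 1.78 and 1.73 at R8 (non-stressed and stressed). It moved beside the stage differences of SPX3 and PHR18, and its part in them was not tested.

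SPX3 had its highest levels in non-stressed seeds at R6 and R8 and was near background in stressed seeds at R7 and R8. In non-stressed R6 seeds its log2 signal was 3.75, 3.83 and 4.24 (mean 3.94 ± 0.27 SD, n = 3). In stressed R6 seeds it was 2.12, 3.10 and 2.46 (2.56 ± 0.50, n = 3). Every stressed R6 seed sample lay below every non-stressed one, with a gap of 0.65 between the nearest arrays.

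At R7 the SPX3 signal was low in both environments. It was 1.37 and 1.59 in non-stressed seeds (1.48 ± 0.15, n = 2) and 0.45, 0.93 and 1.13 in stressed seeds (0.84 ± 0.35, n = 3). The 2 lower stressed arrays were below background, and the groups were 0.24 apart without overlap.

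At R8 the environments parted most. SPX3 returned to 4.12 and 3.68 in non-stressed seeds (3.90 ± 0.31, n = 2), whereas stressed seeds stayed at 1.30, 1.07 and 1.29 (1.22 ± 0.13, n = 3). The nearest arrays of the environments were 2.38 apart. In bulk seed, fewer cells that hold a transcript and less of that transcript per cell cannot be told apart.

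The order of the SPX3 means was non-stressed R6, non-stressed R8, stressed R6, non-stressed R7, stressed R8 and stressed R7. Non-stressed R6 and R8 overlapped and differed by 0.04 in their means, and stressed R8 and stressed R7 also overlapped. Stressed R6 lay 1.34 below non-stressed R8 and 1.08 above non-stressed R7 without overlap on either side.

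PHR18 was also highest in non-stressed R6 seeds and lowest in stressed R8 seeds, but its R7 levels were not ordered as those of SPX3. In non-stressed R6 seeds its log2 signal was 4.42, 4.52 and 4.55 (4.50 ± 0.07, n = 3). In stressed R6 seeds it was 3.59, 3.87 and 4.13 (3.87 ± 0.27, n = 3). All 3 stressed arrays lay under the non-stressed ones, and the nearest pair was 0.28 apart.

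In R7 seeds PHR18 was 2.40 on both non-stressed arrays (2.40 ± 0.0017, n = 2) and 3.14, 2.75 and 2.36 on the stressed arrays (2.75 ± 0.39, n = 3). The stressed arrays fell on both sides of the non-stressed ones, so the environments overlapped at this stage. In R8 seeds it was 2.95 and 3.12 without stress (3.03 ± 0.12, n = 2) and 1.44, 0.73 and 1.28 with stress (1.15 ± 0.37, n = 3). Only 1 stressed R8 array was below background, and a gap of 1.51 separated the environments.

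The PHR18 means ran from non-stressed R6 to stressed R6, non-stressed R8, stressed R7, non-stressed R7 and stressed R8. Neighbours were separated without overlap except around R7, where non-stressed R8 overlapped stressed R7 and stressed R7 overlapped non-stressed R7.

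**Figure D1:**
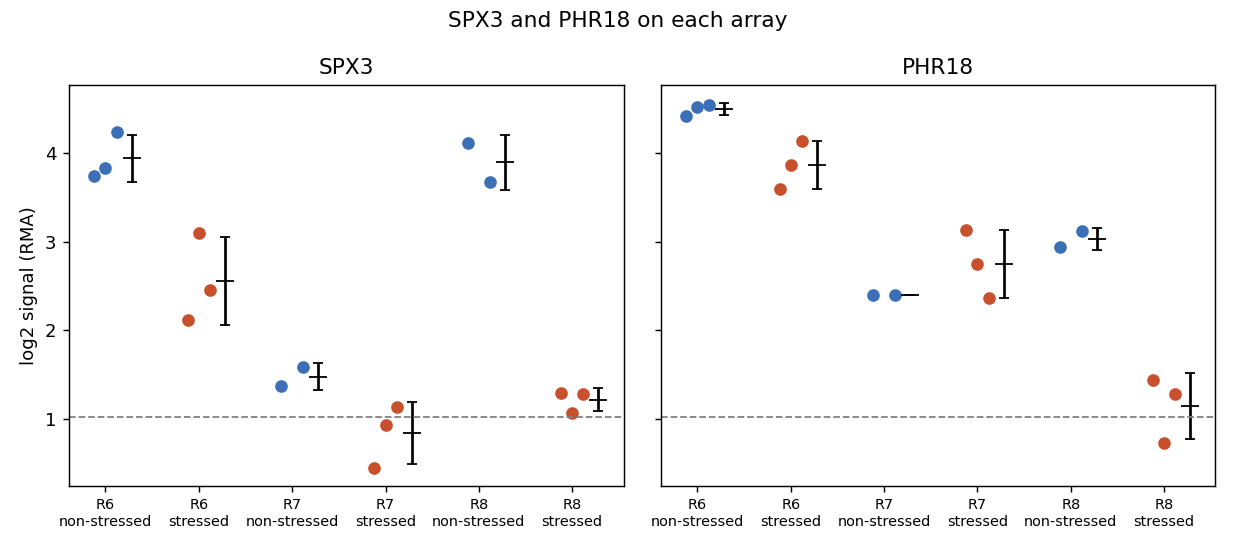
Log2 RMA signal of SPX3 and PHR18 on each of the 16 arrays, by stage and environment (points), with the mean and 1 SD of each condition (bars) and the background level of 1.02 (dashed line). Both genes are low at R7, and in R8 seeds the stressed arrays of SPX3 (1.07 to 1.30) and PHR18 (0.73 to 1.44) lie well under the non-stressed ones.

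The R7 arrays took no part in choosing the genes, and neither gene passed the test for stress at this stage. The study left R7 out of its own comparisons because the seeds in those samples had lost chlorophyll to unlike degrees, so R7 values may mix seeds of somewhat different maturity. SPX3 was 0.64 lower on the log2 scale in stressed R7 seeds (difference -0.64, SE 0.27, 95% confidence interval -1.21 to -0.06, limma adjusted p = 0.0611). Since its stressed mean was under background, the estimated size of that difference is at least 1.37-fold, although the interval reaches -0.06. PHR18 differed the other way, by 0.35 (SE 0.23, 95% confidence interval -0.15 to 0.85, limma adjusted p = 0.223). Of all probe sets tested, 11.9% were called lower and 6.62% were called higher in stressed R7 seeds, so a change at this stage was common and neither gene is counted in it. The interval for SPX3 reaches past a 2-fold fall, whereas that for PHR18 lies within a 2-fold change in either direction.

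Averaged over both environments, both transcripts fell from R6 to R7. SPX3 fell by 2.09 on the log2 scale (SE 0.18, limma adjusted p = 8.87e-08). Since stressed R7 seeds were under background, this is a decrease of at least 4.001-fold, with that mean set to background. SPX3 entered the test only through its levels in non-stressed R6 and R8 seeds, so a lower level at R7 was favoured by the signal limit. PHR18 fell by 1.61 (SE 0.16, limma adjusted p = 3.2e-07), a 3.05-fold decrease. It passed the signal limit in both R6 conditions and in neither R7 condition, so the limit favoured this fall as well. In the same comparison 19.8% of all probe sets were called lower.

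From R7 to R8, again averaged over both environments, only SPX3 was called. SPX3 rose by 1.40 (SE 0.19, limma adjusted p = 1.41e-05), an increase of at least 2.48-fold with the stressed R7 mean set to background. In this comparison 15.5% of all probe sets were called higher. SPX3 passed the signal limit at R8 only in non-stressed seeds, so that limit favoured a rise from R7 as well. The average combined 2.42 without stress and at least 0.19 with stress, where the R7 and R8 arrays overlapped. PHR18 differed by -0.48 (SE 0.16, limma adjusted p = 0.0165), under the fold limit.

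Over the whole span from R6 to R8, PHR18 fell by 2.09 (SE 0.16, limma adjusted p = 9.86e-09), a 4.26-fold decrease, beside 29.1% of all probe sets called lower. PHR18 passed the signal limit in both R6 conditions but at R8 only without stress, so the limit favoured a fall here too. SPX3 differed by -0.69 (SE 0.18, limma adjusted p = 0.00231), again under the fold limit. Centring each array on its soybean median moved every R8 minus R6 difference by 0.31 and every R7 minus R6 difference by 0.29, and the SPX3 value became -0.38 (limma adjusted p = 0.052), with all other calls of the pair kept.

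The averages over environments hid unlike courses, which are given as values because the environments differ at R6 and R8 by the choice of genes. Without stress, SPX3 was 2.46 lower at R7 than at R6 and 2.42 higher at R8 than at R7, a 5.35-fold difference that brought it back to its R6 level. Under stress, its R8 and R7 arrays overlapped, with a difference of at least 0.19 since the R7 mean was under background, and its R8 level was 1.34 below its R6 level.

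PHR18 also turned up between R7 and R8 without stress, by 0.64, and went on down under stress, with a difference of -1.60. Its R7 minus R6 difference was -2.10 without stress and -1.12 with stress. Over the whole span from R6 to R8 its difference was -1.46 in non-stressed and -2.72 in stressed seeds.

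The stress differences that chose the genes were larger at R8 than at R6 for both. SPX3 was lower in stressed seeds by 1.38 on the log2 scale at R6 (difference -1.38, 2.61-fold) and by 2.68 at R8 (difference -2.68, 6.41-fold). Ranked by size among falls over the 19194 probe sets, it was number 755 at R6 and number 1 at R8. PHR18 differed by -0.63 at R6 (1.55-fold lower) and by -1.88 at R8 (3.69-fold lower), ranks 2935 and 23. With levels under background set to it, the PHR18 difference at R8 was -1.79. The stressed R8 arrays of both genes were near or under background, which limits the exactness of these folds and ranks.

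Over all probe sets 7.34% were called lower at R6 and 2.50% at R8, and these shares are given as context only, since the R6 and R8 contrasts selected the pair. Without stressed R6 replicate 3, the array with the lowest correlation in its condition, the R6 differences were -1.33 for SPX3 and -0.76 for PHR18. The SPX3 difference at R8 rested on 2 non-stressed arrays, and leaving out either gave -2.90 or -2.46.

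**Figure D2:**
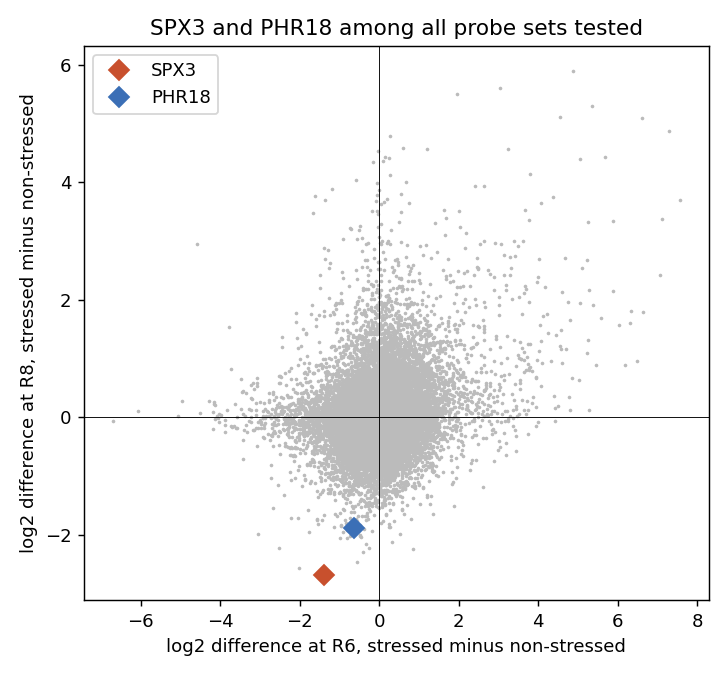
Stressed minus non-stressed log2 difference of each of the 19194 probe sets kept, at R6 (horizontal axis) and at R8 (vertical axis), with SPX3 and PHR18 as diamonds. SPX3 has the lowest R8 value of all (-2.68) with an R6 value of -1.38, while PHR18 (-1.88 at R8) is less far from 0 at R6 (-0.63). Both axes show contrasts on which the pair was chosen.

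Few relatives of either gene could be followed. Of 9 numbered SPX genes in the gene table only SPX3 had a probe set of its own, and of 35 numbered PHR genes 8 had one. Of 14 PHT1 phosphate transporters 2 had a probe set, PHT1-3 and PHT1-8, and both stayed under the signal limit. None of the 14 PHO1 genes, which export phosphate in other plants, had one. Including transporters, acid phosphatases, starvation-linked kinases and phytate enzymes, 31 other phosphate genes were listed and 22 were measured. The 9 that were not were PHR20, PHR, PHT1-3, PHT1-8, PAP25, VSPA, PPCK1, MIPS4 and IPK1.

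Among the 7 other signalling genes measured, 6 PHR genes and PTF1 (a transcription factor linked to tolerance of low phosphate), none was called at R6 or R8. For the limma test that count of 0 stood beside 3 genes at R6 and 4 at R8 with an unadjusted p under 0.05. Their median difference was 0.00 at R6, -0.26 at R7 and -0.56 at R8. The medians over all probe sets were 0.03, -0.05 and -0.03. Over all probe sets 7.54% were called higher and 7.34% lower at R6, and 6.01% higher and 2.50% lower at R8. A count of 0 among 7 genes is therefore not read as a lack of response.

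The R8 differences of PHR family members were on the same side as PHR18 in 4 of 6 genes. The median over all probe sets was -0.03, so a negative difference was common and no family agreement is read from this count. PHR13 differed by -0.58 (limma adjusted p = 0.00222), PHR24 by -0.59 (limma adjusted p = 0.00611) and PHR25 by -0.68 (limma adjusted p = 0.00251). These 3 differences were smaller than 2-fold. PHR35 was not called (fitted difference -0.56, limma adjusted p = 0.0697). Its estimate of at least 1.29-fold lower is a bound because its stressed mean was under background. Its arrays were low at this stage, 1.54 and 1.24 without stress and 0.53, 1.26 and 0.72 with stress. PHR7 and PHR33 had small positive differences of 0.08 and 0.41. The PHR18 difference of -1.88 was larger in size than those of the other PHR genes except PHR35, of which only a bound is known, and it is a description, since PHR18 was selected on this contrast.

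At R7 PHR13 was the one signalling gene called. Its log2 signal was 5.57 and 5.31 in non-stressed and 6.77, 6.71 and 6.44 in stressed seeds. All stressed arrays were higher, and PHR13 rose by 1.20 under stress (limma adjusted p = 3.66e-05), in the direction in which 6.62% of all probe sets were called.

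Of 9 genes measured for phosphate transport and scavenging, 1 was called higher and 1 lower at R6. At R7 2 were called higher and 1 lower, and at R8 2 higher and none lower. Over all probe sets 7.54% were called higher and 7.34% lower at R6, 6.62% and 11.9% at R7, and 6.01% and 2.50% at R8. Counts this small are not read against those shares. The 4 purple acid phosphatases, enzymes that release phosphate from organic esters, were not called at any stage. Their R8 differences ran from -0.42 for PAP3 to 0.49 for PAP01.

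VSPB, a vegetative storage protein of the acid phosphatase family, was the list gene with the largest increase at R8. Its log2 signal was 2.27 and 1.79 in non-stressed and 4.90, 5.04 and 4.90 in stressed R8 seeds. VSPB rose by 2.92 at R8 (limma adjusted p = 0.000356) and by 1.33 at R7 (limma adjusted p = 0.00706). At R6 the non-stressed arrays were at or near background (0.97, 1.08 and 0.65) and the stressed arrays spread widely (1.11, 1.83 and 2.86). The R6 difference of 1.04 was called (limma adjusted p = 0.0306, at least 1.88-fold), but it was lost without any one of non-stressed replicates 1, 2 and 3 or stressed replicates 2 and 3, with values of 0.57 to 1.13. Leaving out non-stressed R7 replicate 2 (1.21) or using array weights (1.21, limma adjusted p = 0.0541) also ended the R7 call. The VSPB probe set is one that the array design marks as shared by related transcripts, so the gene behind its signal is uncertain.

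PPCK4, a kinase that activates phosphoenolpyruvate carboxylase and belongs to a family induced by low phosphate in Arabidopsis, changed direction between stages. At R6 it was 4.01, 3.57 and 3.66 in non-stressed and 2.37, 2.13 and 2.24 in stressed seeds, and it fell by 1.50 (limma adjusted p = 2.31e-05). At R8 it was 2.99 and 2.86 without stress and 5.17, 5.33 and 4.89 with stress. There PPCK4 rose by 2.20 (limma adjusted p = 8.03e-06), and at R7 it rose by 1.45 (limma adjusted p = 0.000173). MGD1, a galactolipid synthase, fell by 1.09 at R7 (limma adjusted p = 0.000931). That MGD1 value was under the fold limit without non-stressed R7 replicate 2 (-0.93) and without stressed R7 replicate 1 (-0.85). The same held with a further quantile normalisation (-0.95) and with centred medians (-0.98). Centring moved every R7 stress difference by 0.11.

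Among 6 genes measured for phytate synthesis, 1 was called lower at R6, 1 lower at R7, and 1 higher and 1 lower at R8. The shares over all probe sets were 7.34% lower at R6, 11.9% lower at R7, and 6.01% higher and 2.50% lower at R8. MIPS, which makes inositol phosphate from glucose phosphate and begins the route, was the gene called higher. Its log2 signal at R8 was 4.29 and 4.38 in non-stressed and 6.47, 6.54 and 6.55 in stressed seeds, and it rose by 2.18 (limma adjusted p = 3.74e-07). On all 11 R6 and R7 arrays its signal lay between 9.19 and 9.99, above every R8 array.

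ITPK genes add phosphates to inositol phosphates. ITPK3 fell by 1.90 at R6 (limma adjusted p = 2.21e-05), from 7.02, 6.65 and 6.54 to 4.99, 5.13 and 4.39. Of its 5 probe sets 3 passed the signal limit, and of the other 2 of these 1 was called as well (-2.28) and 1 was not (-0.39). ITPK2 fell by 1.10 at R8 (limma adjusted p = 0.00103), from 4.51 and 4.92 to 3.68, 3.59 and 3.57, and its other probe set was also called lower there (-1.35). Without non-stressed R8 replicate 2 the ITPK2 value was -0.89, under the fold limit. At R7 ITPK2 fell by 1.02 (limma adjusted p = 0.000394), a call lost without stressed replicate 2 (-0.99) or 3 (-0.97). The call was also lost with a further quantile normalisation (-0.86) and with centred medians (-0.92), and the other ITPK2 probe set differed by -0.06.

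Over all 22 genes measured beside the pair, 1 was called higher and 2 lower at R6, 3 higher and 2 lower at R7, and 3 higher and 1 lower at R8. Of all probe sets, 7.54% were called higher and 7.34% lower in stressed R6 seeds. The shares were 6.62% higher and 11.9% lower in R7 seeds, and 6.01% higher and 2.50% lower in R8 seeds. With 22 genes, 1 gene more or less moves a share by several percentage points, so nothing particular to phosphate genes is read from these counts. The response at R8 minus that at R6 was called in 4 of the 22 genes, all towards a higher response at R8, and 11.4% of all probe sets were called that way. For SPX3 and PHR18 the same quantity was negative, -1.30 and -1.25, given as a description.

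**Figure D3:**
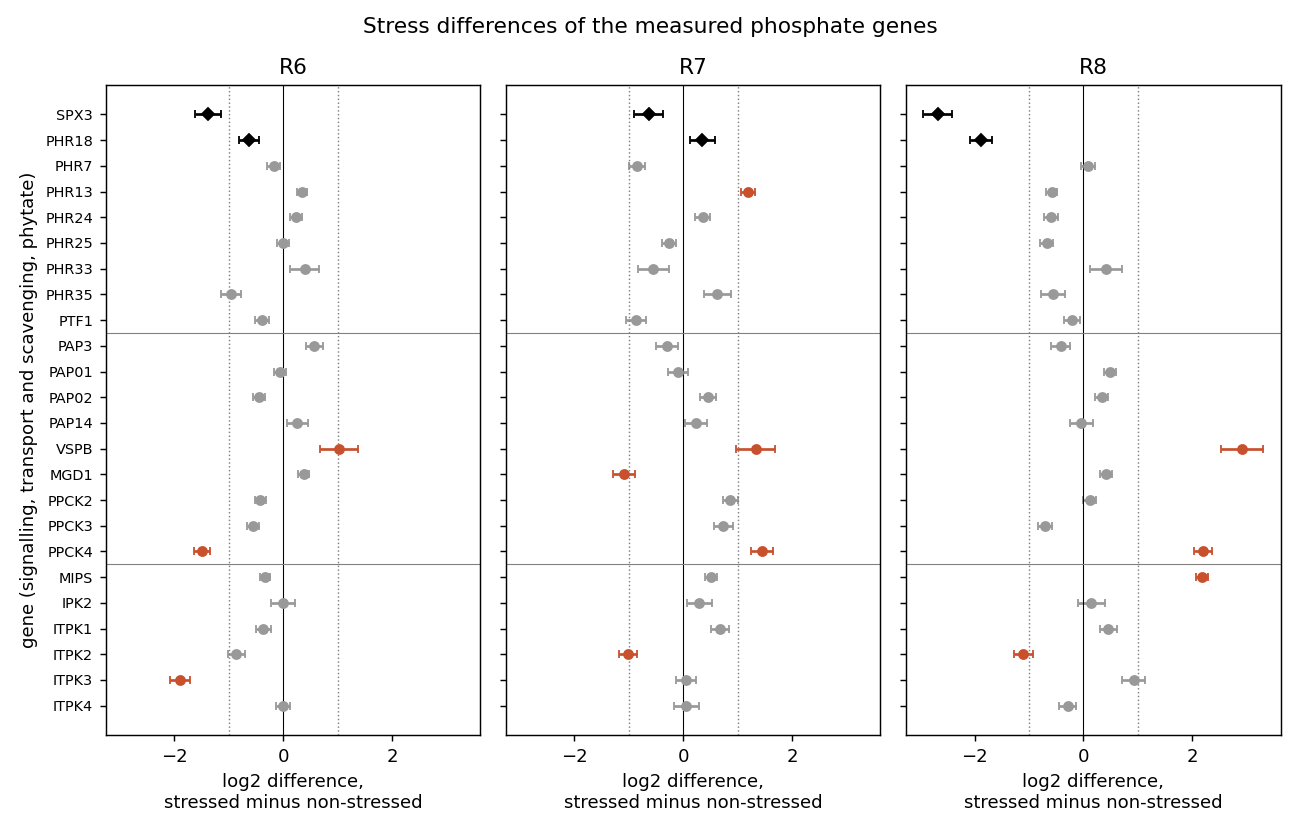
Stressed minus non-stressed log2 difference of SPX3 and PHR18 (black diamonds) and of the 22 other phosphate genes measured, at R6, R7 and R8, with 1 standard error from limma and dotted lines at a 2-fold change; red marks the genes called. At R8 SPX3 (-2.68) and PHR18 (-1.88), which were chosen on this contrast, have the lowest fitted values of the 24 genes. VSPB (2.92), PPCK4 (2.20) and MIPS (2.18) have the highest, and the PHR35 fall is known only as a bound.

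The genes whose course was most like that of the pair were sought among the 696 named genes kept, by Pearson's r over the 6 condition means, without a test because the points share arrays and normalisation. For SPX3 these were NAC22 (r = 0.87, a NAC transcription factor), BZIP80 (r = 0.85, a bZIP transcription factor), G6PDH (r = 0.82, glucose 6-phosphate dehydrogenase), SPK-1 (r = 0.81, a protein kinase) and CDC48 (r = 0.79, an ATPase that extracts proteins for degradation). NAC22, like SPX3, was high in non-stressed R8 seeds, with a mean of 3.08 against 1.56 in stressed R8 seeds, and at or near background at R7 (0.69 and 1.07). The gene with the most opposed course was H4, a histone (r = -0.95), whose mean was 6.70 in non-stressed R6 and 7.35 in non-stressed R8 seeds and 8.60 to 9.79 in the other conditions.

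For PHR18 the most similar genes were RIN4c (r = 0.95), which belongs to a family of immune regulators, WRKY22 (r = 0.95, a WRKY transcription factor), GF14D (r = 0.93, a 14-3-3 protein), DHPS1 (r = 0.93) and PHR24 (r = 0.93), a member of its own family. WRKY22 went from 6.07 in non-stressed R6 to 4.51 in non-stressed R8 and 3.67 in stressed R8 seeds. CAT1, a catalase, had the most opposed course (r = -0.96).

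The course of PHR18 was the commoner one on the array. Of the 19192 other probe sets, 358 had r above 0.9 with PHR18 and 52 with SPX3, and among named genes the numbers were 11 and 0. SPX3 and PHR18 themselves had r = 0.70 over the 6 means.

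**Figure D4:**
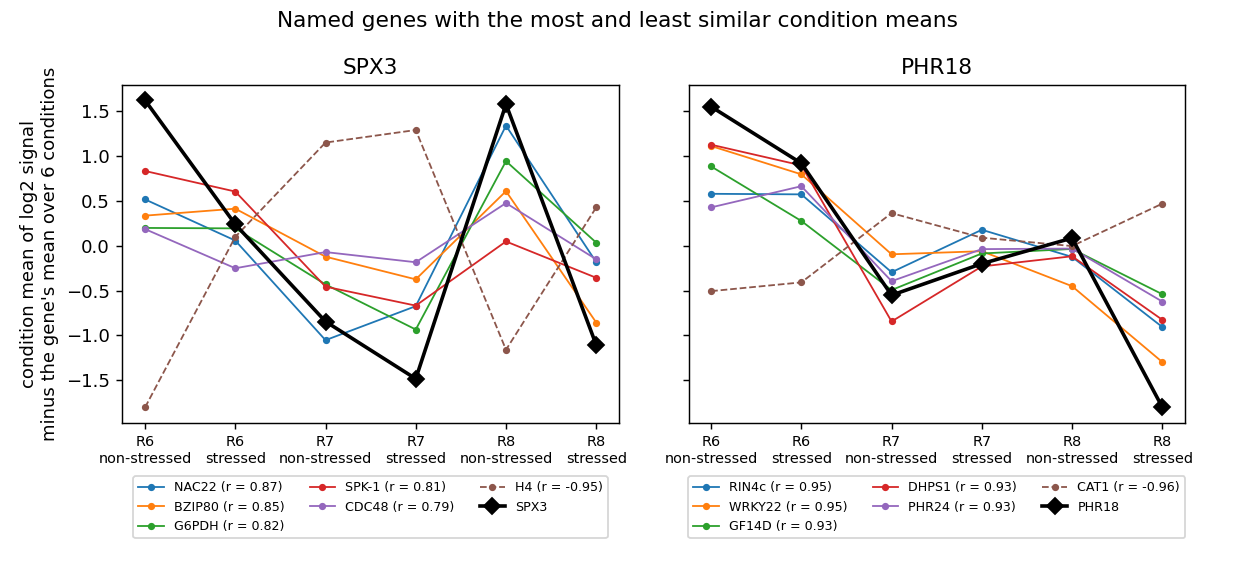
Condition means of log2 signal, centred on each gene's mean over the 6 conditions, for SPX3 and PHR18 (black), the 5 named genes most similar to each (solid lines) and the least similar (dashed). From non-stressed R7 to non-stressed R8 seeds SPX3 went from 1.48 to 3.90 and NAC22 from 0.69 to 3.08. The NAC22 mean at R7 was under background, so these spans are not ranked. The 5 similar genes drawn with PHR18 are highest at R6 and, except DHPS1, lowest in stressed R8 seeds.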

How the data were processed

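RNA of 16 whole-seed samples was hybridised to Affymetrix Soybean Genome arrays, and the authors deposited log2 signals after RMA (background correction, quantile normalisation and summary per probe set); the paper's methods state 18 arrays, of which 16 were analysed here. The table holds 61170 probe sets, of which 37593 are soybean, 23394 belong to other organisms and 183 are controls. The array annotation gave 1 gene to 8677 probe sets and several to 370, and only the former were named. Genes of several probe sets are given by the one with the highest mean. Groups came from the labels. R 4.3.3 and limma 3.58.1 (lmFit, eBayes, two-sided, Benjamini-Hochberg over the 19194 probe sets kept) were used with 1 mean per condition. R6 and R8 stress contrasts used the 11 arrays of these stages, R7 and stage contrasts all 16. The fits were tested on simulated data. Named genes were SPX3, PHR18, the measured genes of 3 phosphate lists found by symbol and synonym, and the 5 most and 1 least similar genes of each; the members and lists were chosen with earlier results of these data known. Promoter and protein sequences were not used here. Alternatives covered the filter, normalisation, arrays in the fit, variance moderation, array weights, a replicate block, the fold limit and leaving out each array. The number of arrays limits the precision.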

Additional observations from a re-analysis of the deposited data

Results flagged for a closer look

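In 4 of the other phosphate genes the stress response at R8 differed from that at R6 by limma's interaction test. The R8 response exceeded the R6 response by 3.70 on the log2 scale for PPCK4 (limma adjusted p = 2.16e-06), by 2.82 for ITPK3 (limma adjusted p = 4.71e-05) and by 2.51 for MIPS (limma adjusted p = 1.45e-06). PPCK4 was lower on all 3 stressed arrays at R6 and higher on all 3 at R8. Of the 2 other ITPK3 probe sets that passed the signal limit, 1 was called in the same direction and 1 was not, with a difference of 0.69. For VSPB the fitted excess was 1.88 (limma adjusted p = 0.0163), and without non-stressed R8 replicate 2 it was 1.64 (limma adjusted p = 0.0728). Its non-stressed R6 mean was under background, so the size of the R6 response is only a lower bound and the excess is not an exact value, with at most 2.01 when that mean is set to background. The seed coat marker sum was lower in stressed seeds at R6, although Ep was higher, and the embryo reserve sum higher at R8, and their part in these 4 genes was not tested.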

How the results depend on the processing

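The stress differences and the stage differences over both environments of SPX3 and PHR18 and the stress calls of the other phosphate genes kept their direction under the alternatives and the 16 fits that each left out 1 array; within-environment stage differences, genes not called, list medians, marker sums and correlations were not run under them. The SPX3 difference at R7 ran from -0.78 to -0.44 when arrays were left out (limma adjusted p from 0.0285 without stressed R6 replicate 2 to 0.242 without non-stressed R7 replicate 2) and from -0.71 to -0.53 under the other alternatives, always short of 2-fold; PHR18 at R7 ran from 0.16 to 0.54 and from 0.32 to 0.48. The 4 stage calls of the pair kept their side of the threshold throughout. The SPX3 difference at R8 ran from -2.90 to -2.46. The replicate numbers did not pair the samples (correlations of same-numbered deviations from -0.22 to 0.37); with the number as a replicate block SPX3 at R7 was -0.71 (limma adjusted p = 0.0491), PHR18 at R7 was 0.34, the probe sets called at R6, R7 and R8 went from 2856, 3563 and 1633 to 2876, 3504 and 1655, and no call of the pair changed.

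For the other phosphate genes, the 1 called higher at R6 became 0 with a further quantile normalisation, with only the arrays compared and with array weights, and 0 to 1 when arrays were left out. The 2 called lower at R7 became 0 with quantile normalisation and with centred medians, and 1 to 2 when arrays were left out. The 1 called lower at R8 became 2 with no filter and 0 to 1 when arrays were left out. With no fold limit the counts higher and lower were 4 and 9 at R6, 9 and 4 at R7, and 7 and 5 at R8. Each loss not tied to fewer arrays or another threshold has a cause that was not tested. Signals near background, as for SPX3 in stressed R7 seeds, limit how large a fall can be measured.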
